A study of Homo sapiens with 15 samples.

Results

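Growth factors, the receptor tyrosine kinases that bind them and their closest partners were followed in HCT116 cells, a human colorectal cancer line, across all 5 groups of a drug treatment study. The set was chosen by gene name. It took every endogenous gene of the panel whose symbol starts with FGF, PDGF, VEGF, EFNA or NTRK, together with a list of further ligands, receptors, 1 binding protein and 1 adaptor, and it held 61 of the 730 endogenous genes measured. Of these, 19 encode receptors and 40 were counted as ligands. The ligand count took in every FGF gene that is not a receptor, including intracellular ones such as FGF11. Transcripts were counted with the NanoString nCounter PanCancer Pathways panel, in which each transcript is captured by a pair of probes, one of which carries a color code that the instrument counts molecule by molecule. The study asked how expression in treated cells differed from that in untreated cells and how it differed among the treatments. The cells were left untreated (control), or exposed for 24 h to 40 µM thymoquinone (TQ), to 15 µM 5-fluorouracil (5-FU), to a mixture of 35 µM TQ and 35 µM 5-FU (Combi), or to 35 µM of SARB, a hybrid molecule made from TQ and 5-FU. Each group had 3 samples, described by the submitters as biological replicates, all from 1 cell line, so that the results describe HCT116 cells alone. The control cells received no treatment, and whether they received the vehicle is not given in the sources used here. TQ is a quinone from black cumin seed, and 5-FU is a pyrimidine analog that disturbs DNA and RNA synthesis and is used against colorectal cancer.

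A receptor tyrosine kinase spans the cell membrane. Binding of its ligand brings receptors together, the receptors phosphorylate each other, and adaptor proteins docking on the phosphorylated tyrosines pass the signal to the RAS-MAPK and PI3K-AKT cascades that govern growth and survival. In the gut epithelium, signaling through EGFR and related receptors sustains renewal of the lining, and it is a drug target in colorectal cancer. NGFR is grouped with these genes because it binds neurotrophins, although it has no kinase domain and belongs to the tumor necrosis factor receptor family.

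Raw counts were scaled in each of the 15 samples to a common level of the 40 housekeeping genes (their geometric mean), which gave the scaled counts printed below, always in the order of replicates 1, 2 and 3. A gene was called higher or lower when edgeR's quasi-likelihood test, fitted to all 730 genes and 5 groups, gave an adjusted p (Benjamini-Hochberg) not above 0.05 and the means differed 1.5-fold or more. All adjusted p values below come from that test unless another is named. The summed endogenous counts were 135017 to 607782 per sample. The negative probes, which match no human transcript, averaged 11.7 to 20.6 scaled counts in the control samples, 3.55 to 7.65 with TQ, 8.39 to 13.9 with 5-FU, 7.25 to 14.6 with Combi and 3.20 to 16.3 with SARB. Instrument file names placed control replicate 1 and all TQ, 5-FU and SARB samples on cartridge 1, control replicates 2 and 3 and Combi replicate 1 on cartridge 2, and Combi replicates 2 and 3 on cartridge 3. With the cartridge as a block, TQ, 5-FU and SARB are therefore compared with control replicate 1 alone, and Combi replicate 1 alone is compared with control replicates 2 and 3. Relative to the housekeeping genes, the bulk of the panel shifted, with median log2 fold changes over the 730 genes of -0.47 with TQ, -0.27 with 5-FU, -0.10 with Combi and -0.41 with SARB, and TMM normalization, which centers most genes on no change, placed these medians between -0.07 and -0.02. Of 11 listed epithelial markers, 7 were on the panel and 6 of them were detected in all 5 groups, including CDH1, the gene for E-cadherin. Their summed level was 3058 to 4323 scaled counts in control, 3760.0 to 3997 with TQ, 13465 to 14416 with 5-FU, 12310.0 to 13310.0 with Combi and 10605 to 12437 with SARB. SFN, an epithelial regulator of the cell cycle, had means of 1170.0, 2055, 8304, 7070.0 and 7347 in the same order of groups. The study lists SFN among the p53 targets raised by 5-FU, so this sum is not a measure of epithelial content alone. CDH1 averaged 311 in control, 135 with TQ, 332 with 5-FU, 545 with Combi and 348 with SARB, and the integrin subunit ITGB4 904, 468, 2015, 2475 and 1107. The part of this shift in the results below was not tested. The single endothelial marker on the panel, FLT1, was detected in no group.

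A gene counted as detected in a group when its raw count exceeded the mean of the 8 negative probes plus 2 SD in all 3 samples. In scaled counts this limit differed between samples. It ran from 5.43 in SARB replicate 3 and 5.9 in TQ replicate 2 to 39.9 and 41.9 in control replicates 2 and 3. A gene can therefore be detected in a group and undetected in another where its scaled counts are higher, so detection does not rank the groups by expression. In each sample, 12 to 41 members had fewer than 20 raw counts, too few for precise fold changes. By the detection measure, 37 of the 61 members (60.7%) were detected in at least 1 group and 23 (37.7%) in all 5, compared with 542 (74.2%) and 405 (55.5%) of all 730 genes. The number of detected members was 26 in control, 30 with TQ, 26 with 5-FU, 31 with Combi and 27 with SARB. Of all 730 genes, 57.9%, 67.1%, 66.2%, 68.6% and 63.4% were detected in the same order of groups. The undetected genes were mostly FGF genes and receptors known from other cell lineages. Of 22 FGF genes other than receptors, 10 were detected nowhere (FGF3, FGF5, FGF6, FGF8, FGF12, FGF13, FGF14, FGF16, FGF17 and FGF20). FGF2, FGF11 and FGF19 were detected in all 5 groups. Among the receptors, CSF1R and FLT3, which serve blood cells, PDGFRA and PDGFRB, which serve mesenchymal cells, FLT1, a vascular endothelial growth factor receptor, the neurotrophin kinase NTRK2, and ALK were among those detected in no group. The undetected ligands outside the FGF family were ANGPT1, EFNA5, EGF, NTF3, PDGFD and VEGFC. The scaled counts of these 24 genes had a median of 12.1 in control, 6.82 with TQ, 9.31 with 5-FU, 11.4 with Combi and 7.79 with SARB, close to the negative probes of the same samples and lowest in the groups where those probes were lowest. PDGFD, a platelet-derived growth factor chain, counted 13.8, 12.1 and 18.5 in control, 7.34, 4.32 and 18.8 with TQ, 10.99, 15.96 and 18.1 with 5-FU, 18.2, 10.5 and 14.97 with Combi and 10.6, 24.3 and 8.86 with SARB. These values overlapped between each treatment and control, and PDGFD was not called in any comparison.

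**Figure D1:**
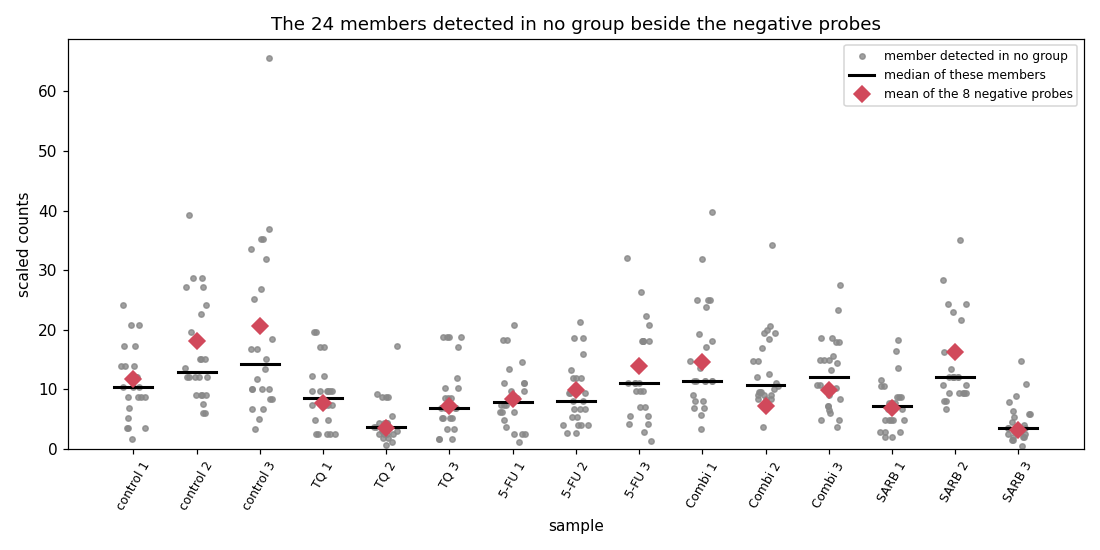
Scaled counts (vertical axis, linear) of the 24 members detected in no group in each of the 15 samples (horizontal axis), with their median as a black bar and the mean of the 8 negative probes as a red diamond. The medians follow the negative probes from sample to sample, and TQ replicate 2 and SARB replicate 3 lie lowest, with negative probes at 3.55 and 3.20.

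Against control, TQ had 0 members called higher and 14 lower, where 3.42% and 21.6% of all 730 genes were called in these directions. In 5-FU, 5 members were called higher and 6 lower, against a background of 10.1% in each direction. Combi had 8 higher and 2 lower (background 13.6% and 6.58%), and SARB had 4 higher and 8 lower (8.63% and 20%). The 61 members had median log2 fold changes of -0.81, -0.37, -0.05 and -0.68 with TQ, 5-FU, Combi and SARB, next to the medians over all genes given above. All 3 treated samples lay below all 3 control samples for 27 members with TQ, 14 with 5-FU, 3 with Combi and 14 with SARB, where the shares over all genes were 39.5%, 27.8%, 16.7% and 28.9%. All 3 lay above for 3, 9, 14 and 7 members, with 6.16%, 16.3%, 19.3% and 13.2% over all genes. These 4 comparisons share the same 3 control samples. Of the 58 calls over all 5 comparisons, SARB versus Combi included, 8 held in every alternative fit and with every single sample left out. They were KITLG, lower in all 4 treatments, NGFR, higher with 5-FU, Combi and SARB, and BDNF, lower with Combi. TMM normalization kept 35 of the 58 calls. With it, 2 members were called higher and 2 lower with TQ (10.8% and 6.03% of all genes), 7 and 2 with 5-FU (14.2% and 5.62%), 11 and 3 with Combi (16.3% and 5.75%), 7 and 4 with SARB (16.4% and 9.32%), and 1 and 9 in SARB versus Combi (5.34% and 7.40%). Cartridge as a block kept 13 of the 58 calls. With it, 0 members were called higher and 2 lower with TQ (1.78% and 3.56% of all genes), 1 and 3 with 5-FU (8.08% and 5.34%), 1 and 2 with Combi (8.36% and 4.79%), and 1 and 3 with SARB (6.85% and 7.67%). Where a setting is named below as ending a call, the log2 fold change under that setting follows in parentheses, and calls gained under another setting are given likewise, other than those gained when a single sample was left out. Replicate number as a block ended 8 calls, each of which was also ended by another setting, and it is not repeated below.

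**Figure D2:**
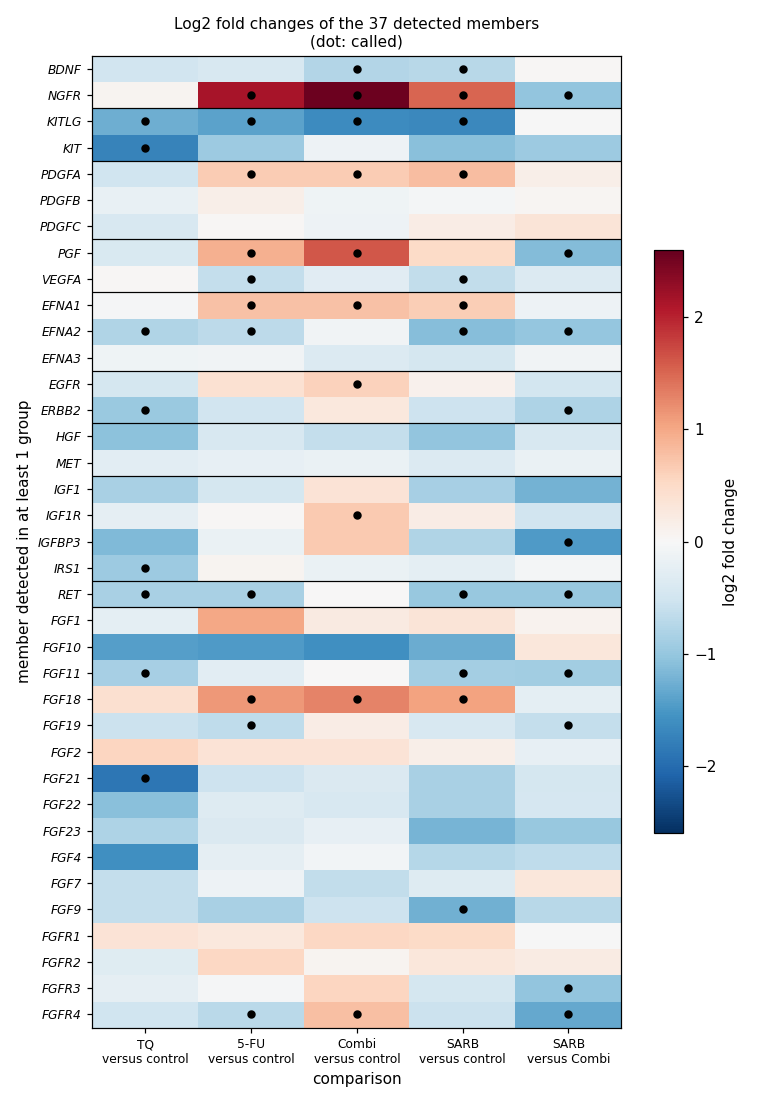
Log2 fold changes (color scale, blue for lower and red for higher) of the 37 members detected in at least 1 group (vertical axis, grouped by family) in the 5 comparisons (horizontal axis), where a dot marks a call. KITLG is blue against control in all 4 treatments (-1.27 to -1.67), NGFR is red with 5-FU, Combi and SARB (1.51 to 2.54), and the SARB versus Combi column holds dots on blue cells alone.

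KITLG encodes stem cell factor, the ligand of the receptor KIT, and it took up most of the members' counts in control. It counted 11297, 12469 and 13772 in control, 5410.4, 5353 and 4833 with TQ, 4914, 4602 and 4739.5 with 5-FU, 4054, 3964 and 3995 with Combi and 3840.0, 3415 and 4571 with SARB. All 12 treated samples lay below all 3 control samples, and the treated groups stood between 2.41-fold (TQ) and 3.17-fold (SARB) under control. The log2 fold changes were -1.27 with TQ, -1.40 with 5-FU, -1.64 with Combi and -1.67 with SARB, each with a standard error of 0.11 and adjusted p values between 2.94e-08 and 1.67e-10. With cartridge as a block they were -1.12, -1.25, -1.69 and -1.52, and after TMM normalization -0.81, -1.20, -1.55 and -1.29. In a bulk lysate, fewer cells with a transcript and less of it per cell cannot be told apart. KITLG made up 62.2% to 63.7% of the raw counts of all members in control, 45.7% to 49.1% with TQ, 40.9% to 42.4% with 5-FU, 33.5% to 34.1% with Combi and 34.9% to 45.0% with SARB. Probes differ in how well they capture their target, so these are shares of counts and not of transcripts. All members together held 4.77% to 5.53% of the endogenous counts in control and 3.21% to 3.72% in the treated samples. The receptor KIT was detected with Combi alone. It counted 13.8, 22.7 and 55.5 in control, 14.7, 3.70 and 13.6 with TQ, 10.99, 14.6 and 22.2 with 5-FU, 31.8, 29.5 and 22.8 with Combi and 14.5, 25.6 and 6.40 with SARB. Control replicate 3 stood above the rest, TQ overlapped with control, and KIT was called lower with TQ (-1.73, adjusted p = 0.0383) at counts near the negative probes. KIT lost its TQ call with TMM normalization (-1.29), with DESeq2 (-1.23), with cartridge as a block (-0.60), on the authors' normalized signal (-1.18), with the other groups left out of the fit (-1.73), with counts under 20 set to 20 (-0.44) or without control 2 (-1.90), control 3 (-0.99), TQ 2 (-1.11) or 5-FU 2 (-1.72).

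Promoter sequence is shown for KITLG, the member called lower in every treatment, and for EFNA1 and FGF18. The latter were called higher in all 3 treatments that contain 5-FU or its hybrid and have a single start window each. The RefSeq table of promoters (build GRCh38.p14) held 81 start windows for 47 of the 61 members. Each line gives the bases before the annotated start, read 5′ to 3′ on the gene's strand, and capitals mark matches on either strand to the GC box (GGGCGG) or the TATA box (TATAAA). KITLG lies on the minus strand at chr12:88580472-88580721, EFNA1 on the plus strand at chr1:155127626-155127875 and FGF18 on the plus strand at chr5:171419397-171419646.
KITLG: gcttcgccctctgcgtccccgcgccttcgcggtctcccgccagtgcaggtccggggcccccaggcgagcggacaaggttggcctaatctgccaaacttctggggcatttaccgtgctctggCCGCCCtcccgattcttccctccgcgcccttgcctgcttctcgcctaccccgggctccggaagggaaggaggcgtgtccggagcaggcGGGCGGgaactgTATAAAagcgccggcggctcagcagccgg
EFNA1: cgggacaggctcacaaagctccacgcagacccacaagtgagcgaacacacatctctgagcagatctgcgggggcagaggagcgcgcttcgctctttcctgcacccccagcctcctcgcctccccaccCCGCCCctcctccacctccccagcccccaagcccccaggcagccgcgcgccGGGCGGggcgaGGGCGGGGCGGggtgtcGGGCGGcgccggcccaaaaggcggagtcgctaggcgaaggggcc
FGF18: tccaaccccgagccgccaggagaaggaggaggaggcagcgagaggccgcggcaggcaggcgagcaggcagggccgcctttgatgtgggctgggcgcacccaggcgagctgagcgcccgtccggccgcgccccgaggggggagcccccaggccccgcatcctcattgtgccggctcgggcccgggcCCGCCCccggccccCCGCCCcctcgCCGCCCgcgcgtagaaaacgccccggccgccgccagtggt
KITLG held 2 GC boxes and a TATA box, EFNA1 held 5 GC boxes and FGF18 held 3, with an adjacent pair in EFNA1 sharing a base. The GC content was 69.2% for KITLG, 73.2% for EFNA1 and 78.8% for FGF18, and the median was 64.4% over the members' windows and 58.0% over all 35116 windows of the table. A GC box stood in 60.5% of the members' windows and 42.6% of all windows, and a TATA box in 7.41% and 10.7%. The E-box (CACGTG) stood in 7.41% and 6.34%, the cyclic AMP response element (TGACGTCA) in 2.47% and 1.65%, the AP-1 site (TGANTCA) in 8.64% and 6.57% and the p53 half-site in 6.17% and 5.57%. These matches describe letters in the windows, which cover only the bases shown, and binding was not measured.

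BDNF, a neurotrophin that binds NTRK2 and NGFR, fell with Combi and SARB. It counted 472, 493 and 492 in control, 375, 335 and 336 with TQ, 347, 392 and 350.2 with 5-FU, 309, 294 and 261 with Combi and 312, 282 and 284 with SARB. Every treated sample lay below every control sample in all 4 treatments. BDNF had log2 fold changes of -0.76 with Combi (standard error 0.11, adjusted p = 2.51e-05) and -0.73 with SARB (0.12, adjusted p = 4.15e-05). They were -0.49 with TQ and -0.42 with 5-FU, under the 1.5-fold limit although the adjusted p values were 0.00432 and 0.00838. BDNF lost its SARB call with TMM normalization (-0.38) or with DESeq2 (-0.36). The other neurotrophin of the set, NTF3, was not detected.

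The vascular endothelial growth factor family split by member. VEGFA, the main inducer of vessel growth, was lower with 5-FU and SARB, and PGF, a relative that binds the receptor FLT1, was higher with 5-FU and Combi. VEGFA counted 866, 849.6 and 850.4 in control, 1018, 775 and 836 with TQ, 591, 519 and 569.9 with 5-FU, 857, 592 and 665 with Combi and 615, 568 and 475 with SARB. The 5-FU and SARB samples lay below all control samples, TQ overlapped with control, and Combi replicate 1 on cartridge 2 stood with control while Combi replicates 2 and 3 on cartridge 3 stood below. VEGFA had log2 fold changes of -0.61 with 5-FU (adjusted p = 0.00218) and -0.63 with SARB (adjusted p = 0.00134), and -0.63 and -0.65 with cartridge as a block, where both were still called. In TQ (0.03) and Combi (-0.29) it was not called. VEGFA lost its 5-FU call with TMM normalization (-0.42), with DESeq2 (-0.41) or without 5-FU 2 (-0.56). VEGFA lost its SARB call with TMM normalization (-0.30), with DESeq2 (-0.29) or without SARB 3 (-0.53). PGF counted 36.3, 42.3 and 67.2 in control, 53.9, 28.98 and 37.5 with TQ, 85.5, 75.8 and 118 with 5-FU, 127, 162 and 156 with Combi and 56.9, 116 and 44.3 with SARB. Every 5-FU and Combi sample lay above every control sample, whereas SARB replicate 2 stood above control and SARB replicates 1 and 3 stood within its range. PGF had log2 fold changes of 0.93 with 5-FU (standard error 0.33, adjusted p = 0.0362) and 1.62 with Combi (0.31, adjusted p = 0.000301), and with SARB PGF was not called at 0.50 (adjusted p = 0.226). PGF was called higher with SARB after TMM normalization (0.83) and with DESeq2 (0.84). PGF lost its 5-FU call with cartridge as a block (1.35) or without control 1 (0.77), control 2 (0.84), 5-FU 1 (0.99) or 5-FU 3 (0.73). PGF lost its Combi call with cartridge as a block (1.22).

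PDGFA, a chain of platelet-derived growth factor, rose in the 3 treatments holding 5-FU or its hybrid. It counted 74.4, 55.9 and 68.9 in control, 41.6, 48.1 and 46.05 with TQ, 92.8, 105 and 115 with 5-FU, 86.3, 129.6 and 91.6 with Combi and 115, 116 and 117 with SARB. All samples of 5-FU, Combi and SARB stood above control and all TQ samples stood below it. PDGFA changed by 0.65 with 5-FU (adjusted p = 0.0144), 0.65 with Combi (adjusted p = 0.0123) and 0.81 with SARB (adjusted p = 0.00218) on the log2 scale, and -0.52 with TQ, where PDGFA was not called (adjusted p = 0.0634). PDGFA lost its 5-FU call with cartridge as a block (0.49) or without control 2 (0.54) or 5-FU 3 (0.58). PDGFA lost its Combi call with cartridge as a block (0.47), with the other groups left out of the fit (0.64) or without control 2 (0.53) or Combi 2 (0.43). PDGFA lost its SARB call with cartridge as a block (0.64). PDGFC, another ligand of the family, was detected in all groups with 144 ± 12.99 scaled counts in control (SD, n = 3), 107 ± 15.98 with TQ, 147 ± 32.8 with 5-FU, 129.7 ± 19.7 with Combi and 166 ± 29.3 with SARB, and it was not called against control in any treatment. Both PDGF receptors were undetected.

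Ephrin-A ligands sit on the cell surface and bind EPHA receptors on neighboring cells, and 2 of the 3 detected ones were called. EFNA1 counted 62.3, 45.4 and 65.5 in control, 51.4, 49.3 and 69.9 with TQ, 75.7, 95.8 and 122 with 5-FU, 96.6, 107 and 88.6 with Combi and 88.7, 95.7 and 83.7 with SARB. All samples of 5-FU, Combi and SARB stood above control, and TQ overlapped with it. EFNA1 had log2 fold changes of 0.76 with 5-FU (adjusted p = 0.011), 0.76 with Combi (adjusted p = 0.00856) and 0.63 with SARB (adjusted p = 0.0254). EFNA1 lost its 5-FU call with cartridge as a block (0.65) or without control 2 (0.61) or 5-FU 3 (0.57). EFNA1 lost its Combi call with cartridge as a block (0.81) or without control 2 (0.61). EFNA1 lost its SARB call with cartridge as a block (0.51), with the other groups left out of the fit (0.63) or without control 2 (0.47), SARB 1 (0.63) or SARB 2 (0.58). EFNA2 counted 60.5, 119 and 123 in control, 63.7, 52.4 and 64.8 with TQ, 53.7, 66.5 and 68.1 with 5-FU, 112, 84.3 and 89.2 with Combi and 44.3, 60.7 and 40.4 with SARB. Control replicate 1 on cartridge 1 stood among the treated samples of the same cartridge, and control replicates 2 and 3 on cartridge 2 stood above all Combi samples. EFNA2 was called lower with TQ (-0.78, adjusted p = 0.0232), 5-FU (-0.69, adjusted p = 0.0411) and SARB (-1.10, adjusted p = 0.00145), and with cartridge as a block the values were -0.04, 0.05 and -0.36, with the direction turned with 5-FU. EFNA2 lost its TQ call with TMM normalization (-0.29), with DESeq2 (-0.25), with cartridge as a block (-0.04), on the authors' normalized signal (-0.68) or without control 2 (-0.64), control 3 (-0.62) or TQ 2 (-0.65). EFNA2 lost its 5-FU call with TMM normalization (-0.49), with DESeq2 (-0.48), with cartridge as a block (0.05), on the authors' normalized signal (-0.69) or without control 2 (-0.55), control 3 (-0.53), 5-FU 1 (-0.59), 5-FU 2 (-0.74), 5-FU 3 (-0.75) or Combi 3 (-0.69). EFNA3 had 309.8 ± 40.2 scaled counts in control, 288 ± 8.40 with TQ, 289.6 ± 11.3 with 5-FU, 244 ± 39.4 with Combi and 229.7 ± 41.9 with SARB, and it was not called.

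Secreted fibroblast growth factors signal through the 4 FGFR kinases. Among them FGF2, the basic fibroblast growth factor, and FGF19, an endocrine factor that in the intestine answers bile acids, were detected in all groups. FGF2 counted 227, 216 and 235 in control, 326, 334 and 338 with TQ, 296, 287 and 285 with 5-FU, 325, 265 and 286 with Combi and 256, 253 and 242 with SARB. All treated samples stood above all control samples, but the log2 fold changes of 0.56 with TQ (adjusted p = 0.00191), 0.36 with 5-FU, 0.36 with Combi and 0.15 with SARB stayed under the 1.5-fold limit. FGF2 was called higher with TQ after TMM normalization, at 1.02 (adjusted p = 2.95e-05), and with DESeq2, at 1.06. FGF19 counted 214, 199.6 and 239 in control, 164, 138 and 147 with TQ, 142, 129 and 138 with 5-FU, 234, 246 and 266 with Combi and 153, 198 and 145 with SARB. All samples of TQ, 5-FU and SARB stood below control, and Combi overlapped with it. FGF19 was called lower with 5-FU (-0.67, standard error 0.15, adjusted p = 0.00136), and at -0.56 with TQ and -0.41 with SARB it stayed under the fold limit. FGF19 lost its 5-FU call with TMM normalization (-0.48) or with DESeq2 (-0.47). On the authors' normalized signal FGF19 was called lower with TQ (-0.60).

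FGF18 rose from counts at the level of the negative probes. It met the detection rule with TQ and Combi alone, although all 5-FU and SARB samples had higher scaled counts than the TQ samples. It counted 12.1, 15.1 and 10.1 in control, 17.1, 17.3 and 15.3 with TQ, 37.9, 23.9 and 19.5 with 5-FU, 36.4, 25.3 and 31.1 with Combi and 21.2, 25.6 and 30.02 with SARB. All treated samples stood above all control samples, while the negative probes averaged 11.7 to 20.6 in those control samples. The log2 fold changes were 1.12 with 5-FU (adjusted p = 0.0396), 1.29 with Combi (adjusted p = 0.0137) and 1.04 with SARB (adjusted p = 0.0396), and 0.41 with TQ, where FGF18 was not called. On the authors' normalized signal FGF18 was called higher with TQ (2.17). With raw counts under 20 set to 20, a floor that stands higher in shallow samples once scaled, the signs turned to -0.09, -0.10 and -0.32. FGF18 lost its 5-FU call with cartridge as a block (1.16), with counts under 20 set to 20 (-0.09) or without control 1 (1.10), control 2 (1.29), control 3 (0.99), 5-FU 1 (0.79), 5-FU 2 (1.20) or Combi 3 (1.12). FGF18 lost its Combi call with cartridge as a block (1.51), with counts under 20 set to 20 (-0.10) or without control 3 (1.16). FGF18 lost its SARB call with cartridge as a block (1.09), with the other groups left out of the fit (1.04), with counts under 20 set to 20 (-0.32) or without control 1 (1.02), control 2 (1.21), control 3 (0.91), Combi 3 (1.04) or SARB 3 (0.89).

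Of the 22 FGF genes other than receptors, 7 were called lower with TQ (FGF5, FGF6, FGF11, FGF14, FGF17, FGF20 and FGF21), where 21.6% of all genes were. With 5-FU 1 was called higher and 1 lower (10.1% of all genes in each direction), with Combi 1 higher (13.6%), and with SARB 1 higher (8.63%) and 2 lower (20%). The median log2 fold change of these 22 genes was -1.10 with TQ, -0.45 with 5-FU, -0.32 with Combi and -0.92 with SARB, next to -0.47, -0.27, -0.10 and -0.41 over all genes. In TQ all 7 calls were lost with counts under 20 set to 20, and the call of FGF20 was the one that TMM normalization kept. The part of the lower background of the TQ samples in these calls was not tested. FGF11, an intracellular member of the family, counted 50.2, 55.9 and 55.5 in control, 36.7, 23.4 and 32.4 with TQ, 37.9, 45.2 and 51.4 with 5-FU, 54.5, 47.4 and 62.3 with Combi and 26.03, 36.4 and 26.1 with SARB. TQ and SARB samples stood below control, at -0.87 (adjusted p = 0.0253) and -0.89 (adjusted p = 0.014) on the log2 scale, and Combi overlapped with control. FGF11 lost its TQ call with TMM normalization (-0.41), with DESeq2 (-0.38), with cartridge as a block (-0.77), with the other groups left out of the fit (-0.86), with counts under 20 set to 20 (-0.69) or without control 2 (-0.83), control 3 (-0.85) or TQ 2 (-0.65). FGF11 lost its SARB call with TMM normalization (-0.54), with DESeq2 (-0.53), with cartridge as a block (-0.79), with the other groups left out of the fit (-0.88) or without SARB 1 (-0.82) or SARB 3 (-0.80). FGF21, an endocrine factor of metabolism, counted 20.8, 45.4 and 36.98 in control, 19.6, 1.85 and 13.6 with TQ, 17.1, 15.96 and 38.9 with 5-FU, 34.1, 24.8 and 21.6 with Combi and 19.3, 35.1 and 7.38 with SARB. TQ samples lay below control (-1.87, adjusted p = 0.0386), and TQ replicate 1 reached 19.6 beside the lowest control sample at 20.8. FGF21 was detected with Combi and SARB alone, and 1 sample exceeded its background in control and 1 in TQ. FGF21 lost its TQ call with TMM normalization (-1.50), with DESeq2 (-1.39), with cartridge as a block (-1.15), on the authors' normalized signal (-1.83), with counts under 20 set to 20 (-0.41) or without control 2 (-1.59), control 3 (-1.81) or TQ 2 (-1.08). FGF9, a ligand of FGFR3 among others, counted 31.1, 37.8 and 50.4 in control, 31.8, 19.7 and 28.99 with TQ, 18.3, 19.96 and 27.8 with 5-FU, 31.8, 28.5 and 22.8 with Combi and 18.3, 25.6 and 8.86 with SARB. SARB samples stood below control (-1.25, adjusted p = 0.019), and so did 5-FU samples, where FGF9 was not called (-0.85, adjusted p = 0.12). FGF9 was detected with TQ and Combi alone, so neither control nor SARB met the detection rule. FGF9 lost its SARB call with cartridge as a block (-0.90), with the other groups left out of the fit (-1.22) or without control 3 (-1.04) or SARB 3 (-0.87). FGF9 was called lower with 5-FU on the authors' normalized signal (-1.02). The undetected FGF5, FGF6, FGF14, FGF17 and FGF20 had log2 fold changes between -1.57 and -2.47 with TQ. Each of these calls was lost without TQ replicate 2, and FGF5 turned to 0.14 with cartridge as a block. FGF5 was called lower with SARB on the authors' normalized signal (-0.76). FGF10, a ligand of epithelial FGFR2, had 59.6 ± 14.2 scaled counts in control, 24.1 ± 12.5 with TQ, 21.5 ± 3.05 with 5-FU, 21.5 ± 23.7 with Combi and 26.1 ± 20.2 with SARB. Its log2 fold changes of -1.29 to -1.59 were among the largest of the family but came with standard errors of 0.63 to 0.66, and it was not called. FGF10 was called lower with Combi after TMM normalization (-1.56), on the authors' normalized signal (-3.25), with the other groups left out of the fit (-1.66) and with counts under 20 set to 20 (-1.41), and lower with TQ and 5-FU with the other groups left out (-1.47 in both). FGF1, FGF4, FGF7, FGF22 and FGF23 were each detected in 1 to 4 groups and were not called. FGF1, detected with 5-FU alone, was called higher there after TMM normalization (1.20), with DESeq2 (1.21) and on the authors' normalized signal (2.54). On that signal FGF1 was also called higher with TQ (1.21), Combi (1.21) and SARB (1.74), and FGF23 lower with SARB (-1.38).

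NGFR, the low-affinity neurotrophin receptor also called p75, rose in every treatment that contained 5-FU or its hybrid. It counted 69.2, 65.00 and 67.2 in control, 78.3, 74.6 and 57.98 with TQ, 288, 326 and 277 with 5-FU, 320.4, 443 and 403 with Combi and 195, 216 and 169.8 with SARB. The 9 samples of 5-FU, Combi and SARB stood above all control and TQ samples. The log2 fold changes were 2.14 with 5-FU (standard error 0.17, adjusted p = 2.85e-09), 2.54 with Combi (0.17, adjusted p = 9.62e-11) and 1.51 with SARB (0.17, adjusted p = 7.35e-07), equal to 4.42-, 5.81- and 2.86-fold. In TQ it was 0.07, with a 95% interval of -0.33 to 0.48. The values with cartridge as a block were 2.10, 2.28 and 1.47, and after TMM normalization 2.34, 2.63 and 1.86, with every one of them called. The neurotrophin kinase NTRK2 stayed undetected in all groups.

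The 4 FGF receptors were detected in all groups and moved differently. FGFR4 counted 118, 121 and 138 in control, 85.7, 96.2 and 78.4 with TQ, 72.04, 79.8 and 79.2 with 5-FU, 132, 262 and 244 with Combi and 76.2, 113 and 71.8 with SARB. All TQ, 5-FU and SARB samples stood below control, and Combi replicates 2 and 3 on cartridge 3 stood above every other sample, while Combi replicate 1 overlapped with control on the same cartridge 2. FGFR4 was called lower with 5-FU (-0.70, adjusted p = 0.0312) and higher with Combi (0.78, adjusted p = 0.00792), and within cartridge 2 the Combi difference was 0.03. FGFR4 lost its 5-FU call with TMM normalization (-0.51), with DESeq2 (-0.50), with cartridge as a block (-0.61) or without control 2 (-0.73), control 3 (-0.63), 5-FU 1 (-0.66), 5-FU 2 (-0.73) or 5-FU 3 (-0.72). FGFR4 lost its Combi call with cartridge as a block (0.03), on the authors' normalized signal (0.70) or without Combi 2 (0.60). FGFR3 counted 363, 308 and 376 in control, 279, 308 and 302 with TQ, 326, 349.9 and 341 with 5-FU, 431, 553 and 558 with Combi and 266, 314 and 190.0 with SARB. All Combi samples stood above control and SARB replicates 1 and 3 stood below, and its log2 fold changes of 0.56 with Combi (adjusted p = 0.00814) and -0.46 with SARB (adjusted p = 0.0261) stayed under the fold limit. FGFR3 was called higher with Combi after TMM normalization (0.66) and with DESeq2 (0.59), and with SARB it stood at -0.13 in both. FGFR1 counted 235, 201 and 240.3 in control, 326, 271 and 275 with TQ, 272, 275 and 269.6 with 5-FU, 302, 341 and 329 with Combi and 310.4, 299 and 344 with SARB. All treated samples stood above all control samples, with log2 fold changes of 0.35 with TQ, 0.27 with 5-FU, 0.53 with Combi and 0.50 with SARB and no call. After TMM normalization FGFR1 was called higher with TQ (0.81), Combi (0.62) and SARB (0.87), and with DESeq2 in TQ (0.85) and SARB (0.88). FGFR2 had 113 ± 31.2 scaled counts in control, 92.9 ± 21.4 with TQ, 162 ± 35.9 with 5-FU, 117 ± 11.0 with Combi and 140 ± 29.8 with SARB, and it was not called. After TMM normalization and with DESeq2 it was called higher with 5-FU (0.70 in both) and SARB (0.63 in both).

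EGFR, the receptor of epidermal growth factor, and ERBB2, its partner without a known ligand, took different courses. EGFR counted 434, 336 and 432 in control, 328, 269 and 283 with TQ, 538, 511 and 521 with 5-FU, 491, 675 and 642 with Combi and 443, 469 and 392 with SARB. All TQ samples stood below control and all 5-FU and Combi samples above it. EGFR was called higher with Combi (0.60, standard error 0.14, adjusted p = 0.00205), at the fold limit, and the values of -0.46 with TQ (adjusted p = 0.0207) and 0.39 with 5-FU (adjusted p = 0.043) lay under that limit. EGFR lost its Combi call with cartridge as a block (0.36), on the authors' normalized signal (0.52) or without control 2 (0.48), Combi 2 (0.51) or Combi 3 (0.55). With DESeq2, EGFR was called higher with 5-FU (0.59). ERBB2 counted 318, 352 and 487 in control, 208, 195 and 194 with TQ, 247, 293 and 284 with 5-FU, 451, 494 and 455 with Combi and 298, 255 and 250.5 with SARB. All samples of TQ, 5-FU and SARB stood below control, while Combi overlapped with it. ERBB2 was called lower with TQ (-0.96, standard error 0.15, adjusted p = 9.64e-05), and it remained called with cartridge as a block (-0.68). ERBB2 lost its TQ call with TMM normalization (-0.48) or with DESeq2 (-0.44). ERBB2 was called lower with SARB on the authors' normalized signal (-0.61). The ligand EGF was detected in no group. It counted 10.4, 13.6 and 13.4 in control, 12.2, 8.63 and 17.1 with TQ, 13.4, 11.97 and 18.1 with 5-FU, 23.9, 34.3 and 23.4 with Combi and 11.6, 16.2 and 5.91 with SARB. All Combi samples stood above control, without a call (1.12, adjusted p = 0.0656), and 2 of the 3 Combi samples exceeded their background. EGF was called higher with Combi after TMM normalization (1.22), with DESeq2 (1.17), on the authors' normalized signal (2.71) and with the other groups left out of the fit (1.13). On the authors' signal EGF was also called higher with TQ (1.55) and 5-FU (1.11).

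**Figure D3:**
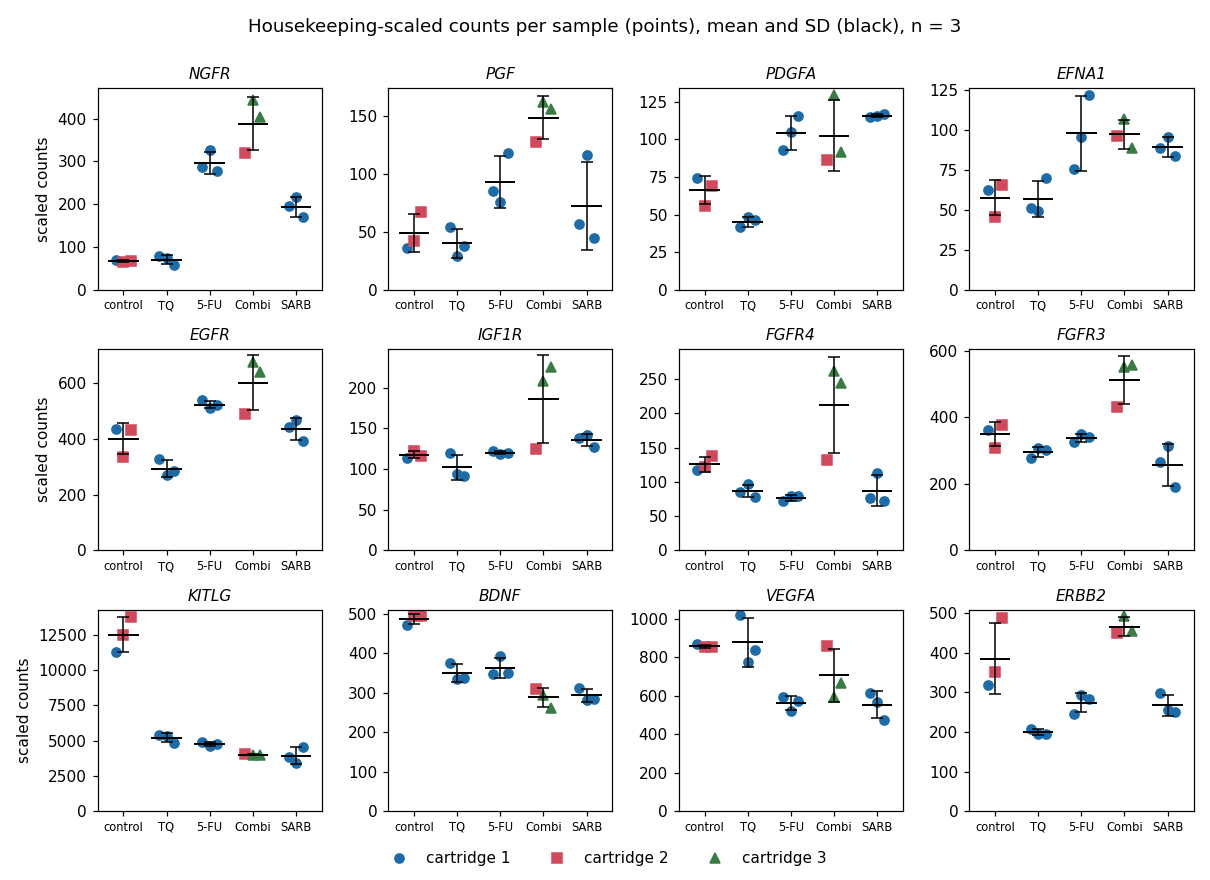
Scaled counts (vertical axes, linear from 0) of 12 members in each sample, by group (horizontal axes), with the mean and SD of 3 samples in black and the cartridge shown by color and symbol. NGFR with 5-FU, Combi and SARB (169.8 to 443) and KITLG in all treatments (3415 to 5410.4) lie apart from the control samples, whereas FGFR4 and IGF1R with Combi differ between cartridge 2 (132 and 125) and cartridge 3.

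IGF1R, the receptor of insulin-like growth factors, counted 114, 122 and 116 in control, 120.0, 94.3 and 92.1 with TQ, 122, 118 and 119.5 with 5-FU, 125, 208 and 226 with Combi and 138, 142 and 127 with SARB. Combi replicates 2 and 3 on cartridge 3 stood above all other samples, and the receptor was called higher with Combi (0.68, adjusted p = 0.00648), with 0.07 within cartridge 2. IGF1R lost its Combi call with cartridge as a block (0.07) or without Combi 3 (0.53). IRS1, the adaptor that docks on this receptor and on the insulin receptor, counted 240.4, 308 and 356 in control, 118, 158 and 186 with TQ, 322, 309 and 317 with 5-FU, 273, 253 and 272 with Combi and 240.1, 244 and 277 with SARB. TQ samples stood below all others, and IRS1 was called lower with TQ (-0.95, standard error 0.16, adjusted p = 0.000198), with values of 0.07, -0.18 and -0.25 with 5-FU, Combi and SARB. IRS1 lost its TQ call with TMM normalization (-0.47), with DESeq2 (-0.44) or with cartridge as a block (-0.62). IGFBP3, a secreted protein that binds insulin-like growth factors, was detected with Combi alone. It counted 12.1, 18.1 and 23.5 in control, 4.90, 9.25 and 8.53 with TQ, 6.11, 17.3 and 25.02 with 5-FU, 31.8, 30.04 and 25.8 with Combi and 12.5, 10.8 and 8.37 with SARB. TQ samples lay below control and Combi samples above it, without a call in either (-1.15, adjusted p = 0.0831, and 0.69, adjusted p = 0.297). IGFBP3 was called higher with Combi on the authors' normalized signal (2.44). IGF1, the ligand, was also detected with Combi alone and was not called.

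RET, the kinase that serves the ligands of the GDNF family, was lower in 3 treatments. It counted 46.7, 48.4 and 57.1 in control, 29.4, 25.9 and 30.7 with TQ, 32.97, 19.96 and 31.97 with 5-FU, 55.7, 50.6 and 47.3 with Combi and 28.9, 24.3 and 24.1 with SARB. All TQ, 5-FU and SARB samples stood below control and Combi overlapped with it. RET changed by -0.84 with TQ (adjusted p = 0.0323), -0.84 with 5-FU (adjusted p = 0.0334) and -0.98 with SARB (adjusted p = 0.00974) on the log2 scale. RET lost its TQ call with TMM normalization (-0.36), with DESeq2 (-0.33), with cartridge as a block (-0.72), on the authors' normalized signal (-0.71), with the other groups left out of the fit (-0.84), with counts under 20 set to 20 (-0.55) or without control 2 (-0.87), control 3 (-0.75), TQ 1 (-0.86) or TQ 2 (-0.75). RET lost its 5-FU call with TMM normalization (-0.64), with DESeq2 (-0.63), with cartridge as a block (-0.72), with counts under 20 set to 20 (-0.73) or without control 2 (-0.87), control 3 (-0.74), 5-FU 2 (-0.64), Combi 2 (-0.84) or Combi 3 (-0.84). RET lost its SARB call with TMM normalization (-0.61), with DESeq2 (-0.59), with cartridge as a block (-0.86) or with the other groups left out of the fit (-0.98). ALK, a receptor kinase of the developing nervous system, was detected in no group and was called lower with TQ (-1.65) and SARB (-1.72) from a control mean of 37.98 ± 23.9, in which control replicate 3 stood at 65.5 and the other two at 24.2. Without control replicate 3 neither call held (-1.0 and -1.07). The TQ call was also lost with TMM normalization (-1.17), with DESeq2 (-1.13) or with cartridge as a block (-1.01). It was lost too on the authors' normalized signal (-1.54), with counts under 20 set to 20 (-0.56) or without TQ 1 (-1.57) or TQ 2 (-1.35). The SARB call was also lost with cartridge as a block (-1.08), on the authors' normalized signal (-2.09) or with counts under 20 set to 20 (-1.27). Leaving out SARB 1 (-1.49) or SARB 3 (-1.36) ended it as well. ALK was called lower with 5-FU after TMM normalization (-1.40), with DESeq2 (-1.40) and with the other groups left out of the fit (-1.61). MET, the receptor of hepatocyte growth factor, was detected in all groups, with 1791 ± 153 scaled counts in control, 1489 ± 108 with TQ, 1536 ± 138 with 5-FU, 1578 ± 104 with Combi and 1395 ± 225 with SARB. Its log2 fold changes ran from -0.36 to -0.18, with no call. Its ligand HGF was also detected in all groups and was not called. It had 46.3 ± 14.9 scaled counts in control, 25.0 ± 17.9 with TQ, 35.0 ± 12.4 with 5-FU, 31.3 ± 17.2 with Combi and 24.3 ± 19.5 with SARB.

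SARB and Combi were the single pair of treatments with matched nominal doses, 35 µM of each drug in the mixture and 35 µM of the hybrid in which TQ and 5-FU are joined in one molecule, and 1 pair was therefore compared. In SARB, 0 members were higher and 11 lower than with Combi, where 0.959% and 11.2% of all genes were called. The members' median log2 difference was -0.62, against -0.32 over all genes, and all 3 SARB samples lay below all 3 Combi samples for 19 members (28.9% of all genes) and above for 0 (4.93%). No cartridge held both groups, so treatment and cartridge cannot be told apart here except through the control samples, and in the fit with cartridge as a block none of the 11 calls held and 0.137% of all genes were called lower. Among the receptors, the log2 difference, SARB minus Combi, was -1.03 for NGFR (95% interval -1.32 to -0.73, adjusted p = 5.94e-05), -1.34 for FGFR4 (-1.78 to -0.91, adjusted p = 0.000174), -1.03 for FGFR3 (-1.35 to -0.71, adjusted p = 0.000111), -0.98 for RET (-1.55 to -0.42, adjusted p = 0.0152) and -0.80 for ERBB2 (-1.09 to -0.51, adjusted p = 0.000402). With cartridge as a block these were -0.81, -0.51, -0.86, -0.94 and -0.36. Among the ligands and the intracellular FGF11, it was -1.12 for PGF (-1.70 to -0.54), -1.0 for EFNA2 (-1.49 to -0.51), -0.91 for FGF11 (-1.45 to -0.37), -0.61 for FGF19 (-0.89 to -0.32) and -1.36 for the undetected EGF (-2.24 to -0.48), with adjusted p values from 0.00356 to 0.0311. The binding protein IGFBP3 had the largest of these differences at -1.48 (-2.39 to -0.56, adjusted p = 0.0251), at counts of 8.37 to 31.8. All 11 showed every SARB sample below every Combi sample.

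Several of these calls depended on single samples or on the normalization. PGF lost its SARB-versus-Combi call with cartridge as a block (-0.33), on the authors' normalized signal (-1.21) or without SARB 3 (-0.82). RET lost its SARB-versus-Combi call with DESeq2 (-0.63), with cartridge as a block (-0.94) or without Combi 2 (-0.99) or SARB 3 (-0.92). ERBB2 lost its SARB-versus-Combi call with TMM normalization (-0.54), with DESeq2 (-0.47) or with cartridge as a block (-0.36). FGF19 lost its SARB-versus-Combi call with TMM normalization (-0.35), with DESeq2 (-0.29), with cartridge as a block (-0.49) or without Combi 3 (-0.55), SARB 1 (-0.56) or SARB 3 (-0.51). FGF11 lost its SARB-versus-Combi call with DESeq2 (-0.58), with cartridge as a block (-0.76), with the other groups left out of the fit (-0.91) or without Combi 3 (-0.80), SARB 1 (-0.84) or SARB 3 (-0.83). IGFBP3 lost its SARB-versus-Combi call with DESeq2 (-1.15), with cartridge as a block (-0.83), on the authors' normalized signal (-2.15), with counts under 20 set to 20 (-0.70) or without Combi 2 (-1.45), Combi 3 (-1.56), SARB 1 (-1.63) or SARB 3 (-1.30). EGF lost its SARB-versus-Combi call with DESeq2 (-1.09), with cartridge as a block (-0.79), with the other groups left out of the fit (-1.35), with counts under 20 set to 20 (-0.61) or without Combi 2 (-1.14), Combi 3 (-1.46), SARB 1 (-1.42) or SARB 3 (-0.99). NGFR, FGFR3, FGFR4 and EFNA2 held in all fits but the one with cartridge as a block, where EFNA2 stood at -0.26. The ligand KITLG differed by -0.02 between SARB and Combi, with a 95% interval of -0.25 to 0.21. The intervals were -0.21 to 0.26 around 0.03 for BDNF, -0.27 to 0.22 around -0.02 for FGFR1, -0.53 to 0.26 around -0.13 for EFNA1 and -0.19 to 0.51 around 0.16 for PDGFA, and none of these was called. PDGFC, at 0.33 (-0.03 to 0.69), was called higher with SARB than with Combi after TMM normalization, at 0.59, and with DESeq2, at 0.66. Doses of the other treatments did not match, since Combi held less TQ than the 40 µM given alone and more 5-FU than the 15 µM given alone.

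**Figure D4:**
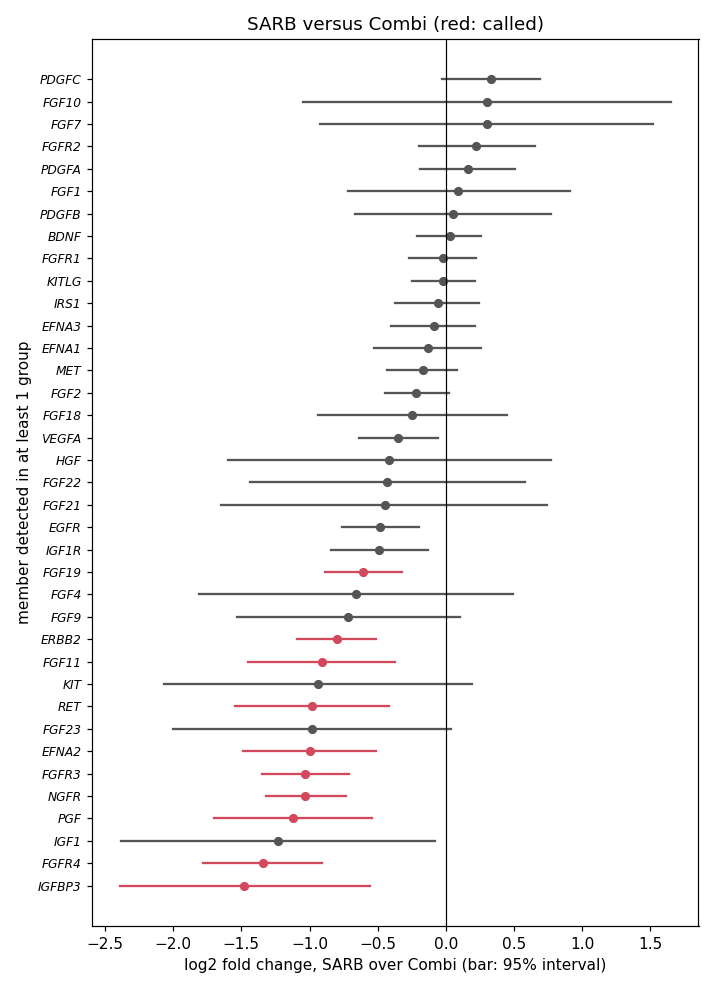
Log2 fold change of SARB over Combi with its 95% interval (horizontal axis) for the 37 members detected in at least 1 group (vertical axis, ordered by value), called members in red. Called members lie left of 0, from IGFBP3 at -1.48 to FGF19 at -0.61, and KITLG and FGFR1 lie at -0.02.

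Of a wider list of 60 adaptors, regulators, receptors and ligands of the same pathway, 22 were on the panel and 16 of them were detected in at least 1 group. TQ had 0 of these 22 called higher and 4 lower, next to 3.42% and 21.6% of all 730 genes. With 5-FU, 2 and 0 were called (10.1% in each direction of all genes), with Combi 3 and 0 (13.6% and 6.58%), with SARB 2 and 3 (8.63% and 20%), and in SARB versus Combi 0 and 3 (0.959% and 11.2%). Their median log2 fold changes were -0.36, -0.22, -0.01, -0.30 and -0.35. The calls and values of this list come from the edgeR fit with housekeeping scaling alone. Whether they hold under the other settings is not given here. EPHA2, a receptor of the ephrin-A ligands, was called higher with 5-FU (2.08), Combi (1.83) and SARB (1.93), and the group means were 401 ± 150.0 scaled counts in control, 587 ± 22.9 with TQ, 1693 ± 161 with 5-FU, 1422 ± 414 with Combi and 1528 ± 238 with SARB. SHC1, an adaptor that links phosphorylated receptors to RAS, was called higher with 5-FU (0.81), Combi (0.67) and SARB (0.64). PTPN11, the phosphatase SHP2 acting between receptors and RAS, was called lower with SARB (-0.79). RASA4 (-1.13) and RASGRP2 (-1.21), regulators of RAS detected in all 5 groups, were among the genes called lower with TQ, as was SHC3 (-2.37), an adaptor detected in no group, with 15.1 ± 4.03 scaled counts in control and 3.14 ± 1.74 with TQ. Both SHC3 means lay under those of the negative probes, which were 16.8 in control and 6.15 with TQ. The part of this background in the SHC3 call was not tested.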

How the data were processed

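RNA from HCT116 cells (50 ng per sample) was hybridized to the NanoString nCounter PanCancer Pathways panel. The authors deposited raw counts per probe, which were analyzed here, and a normalized signal that they made in nSolver by scaling to the housekeeping genes. For 100% of its values this deposited signal could be rebuilt to within 1% by subtracting each sample's geometric mean of negative probes from the counts, with a floor of 1, and multiplying by 1 factor per sample, so that low counts are cut off in it. The authors' table of fold changes and p-values was not used.

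Raw counts of 730 endogenous genes in 15 samples entered 1 quasi-likelihood fit in edgeR 4.0.16 (R 4.3.3), with library sizes set from the 40 housekeeping genes and Benjamini-Hochberg adjustment over all 730 genes. The fit was tested on simulated data. Calls needed an adjusted p not above 0.05 and a 1.5-fold difference. Alternatives were TMM normalization, DESeq2 1.42.0, cartridge as a block, detected genes only, the authors' normalized signal on the log2 scale with a pseudocount of 1 in limma 3.58.1, a fit of the groups compared alone, replicate number as a block, each sample left out in turn, and, added after the data were seen, counts under 20 set to 20. Members called in at least 1 comparison and detected in at least 1 group are given in every sample, together with EGF, IGFBP3, FGF9, PDGFD, VEGFA and NGFR, which the study discusses, and FGF2 and FGFR1, added after their values were seen. Up to 10 further detected members are given by group means. The members, gene lists and rules were chosen with earlier results of these data known. Promoters came from RefSeq (GRCh38.p14). Some genes that entered the fit and the counts are not reported here by name.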

Additional observations from a re-analysis of the deposited data

How the results depend on the processing

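Of the 58 calls of members, TMM normalization kept 35, DESeq2 31, the authors' normalized signal in limma 43, a fit of the compared groups alone 47, counts under 20 set to 20 41 and cartridge as a block 13, and the fit on detected genes kept all 50 that it could test. Directions turned for FGF5 with TQ (0.14) and EFNA2 with 5-FU (0.05) with cartridge as a block, and for FGF18 with 5-FU (-0.09), Combi (-0.10) and SARB (-0.32) with counts under 20 set to 20, where the floor itself scales with depth. In what follows the share of all genes called in the same fit and direction stands in parentheses. The members higher with TQ numbered 2 by TMM (10.8%), 2 by DESeq2 (11.6%) and 3 on the authors' signal (4.11%). The members lower with TQ numbered 2 by TMM (6.03%), 2 by DESeq2 (5.07%), 6 on the authors' signal (13.6%), 2 by cartridge as a block (3.56%), 8 among detected genes (19.9%) and 4 with counts under 20 set to 20 (9.45%). With 5-FU, DESeq2 gave 8 higher (14.0%) and 2 lower (4.66%), TMM 2 lower (5.62%) and the cartridge block 1 higher (8.08%) and 3 lower (5.34%). With Combi, the cartridge block gave 1 higher (8.36%). With SARB, TMM gave 7 higher (16.4%) and 4 lower (9.32%), DESeq2 7 (15.9%) and 4 (8.22%), the cartridge block 1 (6.85%) and 3 (7.67%), and the compared groups alone 2 (7.95%) and 5 (15.2%). In SARB versus Combi, TMM and DESeq2 each gave 1 higher (5.34% and 6.58%), DESeq2 5 lower (5.48%) and the cartridge block 0 lower (0.137%). Why these counts moved was not tested, except that the cartridge block leaves 1 control sample for TQ, 5-FU and SARB. With 1 sample left out at a time, the higher and lower members ranged from 0 to 1 and 3 to 19 with TQ, 1 to 5 and 2 to 9 with 5-FU, 5 to 9 and 2 to 3 with Combi, 2 to 4 and 4 to 28 with SARB, and 0 to 0 and 5 to 22 in SARB versus Combi. Over all genes the shares in these fits ranged from 2.88% to 4.66% and 8.49% to 28.5% with TQ, 8.49% to 10.8% and 7.40% to 14.2% with 5-FU, 11.1% to 14.2% and 6.03% to 9.18% with Combi, 7.40% to 10.0% and 12.5% to 33.3% with SARB, and 0.822% to 1.64% and 5.48% to 20.3% in SARB versus Combi. The 28 and the 22 came without SARB replicate 2, where 33.3% and 20.3% of all genes were called, and its negative probes averaged 16.3 scaled counts, against 6.87 and 3.20 in SARB replicates 1 and 3. The 3 lower with TQ came without TQ replicate 2, where 8.49% of all genes were called, and the 19 without SARB replicate 3 (28.5%).

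With 3 samples per group, it could not be settled whether replicate numbers pair the samples. Over 542 genes, deviations of same-numbered samples from their group means correlated from -0.718 to 0.444, with 11 of 30 over 0.1. With replicate number as a block, 50 of the 58 calls held, and the 8 it ended were ALK (-1.61), FGF21 (-1.84) and KIT (-1.67) with TQ, EFNA2 (-0.68) and FGF18 (1.10) with 5-FU, ALK (-1.62) and FGF18 (1.05) with SARB and EGF (-1.34) in SARB versus Combi. It left 11 members lower with TQ (18.8% of all genes), 4 higher and 5 lower with 5-FU (9.86% and 9.59%), 8 and 2 with Combi (13.2% and 6.44%), 3 and 7 with SARB (8.49% and 17.3%), and 10 lower in SARB versus Combi (8.63%). The count of detected members was 37, and it was 30 at 3 SD, 37 above the highest negative probe and 44 when 2 of 3 samples sufficed. Members near the negative probes have too few counts for small changes to be seen.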
